A study of Mus musculus with 2 samples.

Results

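Cholesterol and fatty acid synthesis was followed through 30 genes in MC38 tumours of mice given the SHP2 inhibitor SHP099 or its control. The genes were taken by symbol from a list drawn up by function: 18 enzymes of cholesterol synthesis, 8 enzymes that make, lengthen or desaturate fatty acids, and 4 genes that regulate the pathway or carry sterol. The list was chosen with earlier results of these data known, so contrasts of its members with all genes are not free of selection. All 30 were found among the 31053 features of the count matrices. MC38 is a colon carcinoma cell line of C57BL/6 mice, and SHP099 is an allosteric inhibitor of the tyrosine phosphatase SHP2, which relays growth factor receptor signals to RAS and ERK. The SHP099 library came from tumours of C57BL/6 mice dosed into the stomach with 5 mg/kg SHP099 hydrochloride daily for 14 days. The control library came from mice that the labels describe both as given PBS and as untreated. In both groups, of 6 mice each, treatment began 5 days after injection of the cells into the flank, at tumours of about 100 mm3, and the whole dissociated tumour was captured. The drug was given to the whole animal, so host cells were exposed to it as well. Each group is 1 library, and the sources used here do not give the number of tumours in it. The values below therefore compare 2 libraries; no test between conditions was possible, and every 95% interval covers counting error only.

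Cells make cholesterol from acetyl-CoA through mevalonate, farnesyl diphosphate and squalene, and the same early steps supply the lipid anchors of RAS family proteins, ubiquinone and dolichol. Fatty acid synthesis starts from the same acetyl-CoA, which ATP citrate lyase releases from citrate. Both pathways are switched on by the SREBP transcription factors, the products of Srebf1 and Srebf2, which stay in the endoplasmic reticulum, held by INSIG proteins, while sterol is plentiful. SREBPs bind sterol regulatory elements and usually act together with NF-Y at CCAAT boxes and Sp1 at GC boxes. Dividing tumour cells need both products for new membrane, and macrophages also take up lipid from debris and lipoproteins.

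Promoters in the RefSeq table for GRCm38.p6 matched 23 of the 30 genes by symbol. These genes had 28 windows of 300 bases (250 before an annotated start and 50 from it), since some have several starts, and each window was searched on both strands for TCACNCCAC, a form of the sterol regulatory element, for CCAAT and for GGGCGG, the GC box. A CCAAT box lay in at least 1 window of 19 of the 23 genes (82.6%), against 41.1% of all 27025 genes in the table and 43.0% of the 5588 genes at 10 CPM or more in the tumour cells (CPM, the counts of a gene per 1000000 counts of its cell class). A CCAAT box together with a GC box was found for 17 of 23 genes (73.9%), against 15.8% and 31.7%. The roles differed in these letters: the CCAAT box was present in 14 of 15 matched cholesterol enzymes and in 2 of 5 matched fatty acid enzymes. TCACNCCAC was found in 1 member, Hmgcs1, and in 1.44% of all genes. The 250 bases before the start are printed for 4 genes on which the results turn: the 2 enzymes higher in SHP099 phagocytes, the enzyme with the reverse pattern across cell classes, and the fatty acid synthase. Capitals mark matches to the 3 motifs on either strand, so that ATTGG is CCAAT and CCGCCC is GGGCGG read on the other strand. A match is a description of letters and not of a bound site. The starts are those of RefSeq. The GENCODE annotation starts the Idi1 gene at chr13:8885501, inside the stretch printed for it, so its marked matches lie after that start.
Hmgcs1, chr13:119690101-119690350, plus strand, with 1 sterol regulatory element, 3 CCAAT boxes and 2 GC boxes: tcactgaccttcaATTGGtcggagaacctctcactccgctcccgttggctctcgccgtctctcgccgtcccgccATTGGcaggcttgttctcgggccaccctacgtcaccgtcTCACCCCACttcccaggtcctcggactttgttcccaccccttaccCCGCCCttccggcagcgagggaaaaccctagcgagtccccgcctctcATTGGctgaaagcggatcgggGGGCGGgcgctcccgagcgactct
Idi1, chr13:8885356-8885605, plus strand, with 2 CCAAT boxes and 1 GC box: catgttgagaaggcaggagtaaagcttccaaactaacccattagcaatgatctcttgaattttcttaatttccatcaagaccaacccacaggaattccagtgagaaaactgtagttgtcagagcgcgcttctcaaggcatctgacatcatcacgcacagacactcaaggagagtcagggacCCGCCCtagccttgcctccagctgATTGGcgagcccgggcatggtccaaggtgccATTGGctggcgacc
Ebp, chrX:8193513-8193762, minus strand, with 2 CCAAT boxes and 1 GC box: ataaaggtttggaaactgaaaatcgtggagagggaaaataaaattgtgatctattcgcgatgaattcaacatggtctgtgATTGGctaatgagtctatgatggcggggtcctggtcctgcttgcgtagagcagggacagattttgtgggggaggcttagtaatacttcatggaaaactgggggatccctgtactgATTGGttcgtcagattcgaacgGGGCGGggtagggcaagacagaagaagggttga
Fasn, chr11:120824548-120824797, minus strand, with 3 CCAAT boxes, of which 2 overlap: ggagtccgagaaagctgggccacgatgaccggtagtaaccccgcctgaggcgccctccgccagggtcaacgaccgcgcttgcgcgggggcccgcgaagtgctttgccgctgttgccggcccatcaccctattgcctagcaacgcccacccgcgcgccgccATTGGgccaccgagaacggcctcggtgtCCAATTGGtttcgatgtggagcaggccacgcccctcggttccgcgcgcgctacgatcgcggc

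The deposited matrices held 8263 barcodes with 112901642 unique molecular identifiers (UMIs, each a captured RNA molecule) in the SHP099 library and 8245 barcodes with 126218180 UMIs in the control library. After filters and doublet removal, 7702 and 7688 cells were kept, and 100 barcodes occurred in both libraries. Cells were grouped by clusters and marker genes. The tumour cells are called by the rule that chose them, Xist-negative cells, because their clusters lack the X-inactivation RNA that host cells of these mice carry: Xist was at 2.86 and 2.63 CPM in SHP099 and control, against 1196 and 1042 CPM in mononuclear phagocytes. They carried the MC38 markers, with Hmga2 at 82.2 and 108 CPM and Igf2bp2 at 47.6 and 50.3 CPM, whereas phagocytes had 3.16 and 3.35 CPM of Hmga2. Among the 10 genes that led each cluster of this class, no cluster had an MC38 marker from the list used, so the class is defined by Xist alone. Cluster 0, led by Aspn, Dpt, Ogn and Dcn, also met the naming rule for fibroblasts with 3 of their markers, cluster 2 was led by Ero1l and Bnip3, and cluster 18 by haemoglobin genes. Classes with at least 200 cells in each library were compared between libraries: 4285 and 4179 Xist-negative cells, 2620 and 2528 phagocytes (macrophages and monocytes), and 286 and 425 T cells, SHP099 before control. Median UMIs per cell were 20183 and 24329 in Xist-negative cells and 4294.5 and 4415 in phagocytes. Nuclear Malat1 RNA was at 24331 and 17829 CPM in Xist-negative cells, and the mitochondrial share of UMIs was 3.60% and 3.09% there and 3.09% and 2.17% in phagocytes. Haemoglobin RNA was at 75.2 and 30.8 CPM in Xist-negative cells and 21.54 and 1.98 CPM in phagocytes; the part of these differences in the results was not tested. Since 3′ UMI counts do not grow with transcript length, levels of different genes are set side by side without division by length, although capture can differ between genes.

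Most members were higher in tumour cells than in phagocytes, the other large class, and a pair of them ran the other way. In the SHP099 library, 24 members reached 10 CPM in Xist-negative cells or phagocytes. Of these, 21 were at least 1.5-fold higher in Xist-negative cells, beside 36.5% of the 8126 genes measured that way, and 2 were at least 1.5-fold lower, beside 26.3%. In the control library 23 of 26 were higher, beside 38.9% of 8047 genes, and 2 were lower, beside 27.3%. The limit was reached in Xist-negative cells alone by 12 of the 24 members in SHP099 and 15 of the 26 in control, so these were likely to be higher there by selection. Among the members that reached it in both classes, 9 of 12 in SHP099 and 8 of 11 in control were 1.5-fold higher. Over all 30 members whatever their level, 26 and 27 ratios were above 0. The shares of all genes under these other limits were not counted, so neither count has a background. The median log2 ratio of Xist-negative cells over phagocytes was 1.12 over the members in SHP099 and 1.499 in control, and 0.22 and 0.26 over all genes measured. Fatty acid enzymes had medians of 2.42 and 2.11 and cholesterol enzymes 1.12 and 1.32. Fasn, Scd1, Acaca and Elovl6 reached 10 CPM in Xist-negative cells alone, as did several cholesterol enzymes, so selection likely shaped this gap between the roles. The fatty acid enzymes that reached it in both classes were Scd2 at 2.42 and 2.11, Acly at 0.85 and 0.79 and Fads1 at 1.01 and 1.40.

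Scd1, the stearoyl-CoA desaturase that makes oleate, had 45.8 and 53.4 CPM in SHP099 and control Xist-negative cells and 3.24 and 3.18 CPM in phagocytes, a log2 ratio between the classes of 3.63 and 3.87. Sqle, the squalene epoxidase, a slow oxygen-requiring step, had 56.8 and 57.3 CPM in Xist-negative cells and 6.32 and 4.47 CPM in phagocytes, at 3.07 and 3.54. Both genes were thus about an order of magnitude higher in tumour cells than in phagocytes in each library. Elovl6, which lengthens palmitate, stood at 3.04 and 3.08, Fasn, the synthase of palmitate itself, at 2.54 and 3.098, and Fdps, the synthase of farnesyl diphosphate, at 2.14 and 2.55. The phagocyte level was 7.08% and 5.96% of the tumour cell level for Scd1 and 9.94% and 9.89% for Elovl6. The same share for the MC38 markers was 3.84% and 3.099% for Hmga2, 6.29% and 7.01% for Igf2bp2, 27.1% and 15.6% for Igf2bp3, and 31.3% and 33.3% for Tnfrsf12a. The part of free tumour RNA in the phagocyte levels was not tested.

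Ebp, the sterol isomerase that also binds the drug emopamil, ran against the rest of the pathway. It had 17.3 and 19.5 CPM in SHP099 and control Xist-negative cells, against 69.0 and 62.2 CPM in phagocytes, 3.90-fold and 3.13-fold higher in phagocytes. It was also at 81.6 and 57.0 CPM in T cells and at 64.1 and 49.3 CPM in NK cells, so each of these 3 immune classes was above the tumour cells in both libraries. The pattern was not of immune cells alone, as control fibroblasts had 60.2 CPM. Beside these classes and dendritic cells, Xist-negative cells were the lowest in both libraries. With each cell thinned to 2000 UMIs, 3.20% and 3.58% of Xist-negative cells and 11.6% and 11.0% of phagocytes had an Ebp UMI (28.4% and 34.4%, and 25.9% and 24.0%, with all UMIs). Insig1, the endoplasmic reticulum anchor that restrains SREBP and is itself an SREBP target, was likewise lower in Xist-negative cells, at 29.5 and 26.9 CPM against 44.95 and 43.9 CPM in phagocytes. Tm7sf2, a sterol reductase, was under 10 CPM everywhere it was compared. Its level was 0.98 and 0.86 CPM in Xist-negative cells and 3.73 and 4.99 CPM in phagocytes. Pmvk, the phosphomevalonate kinase, was the measured member between the limits, at 31.8 and 39.8 CPM in Xist-negative cells and 34.3 and 37.8 CPM in phagocytes.

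**Figure D1:**
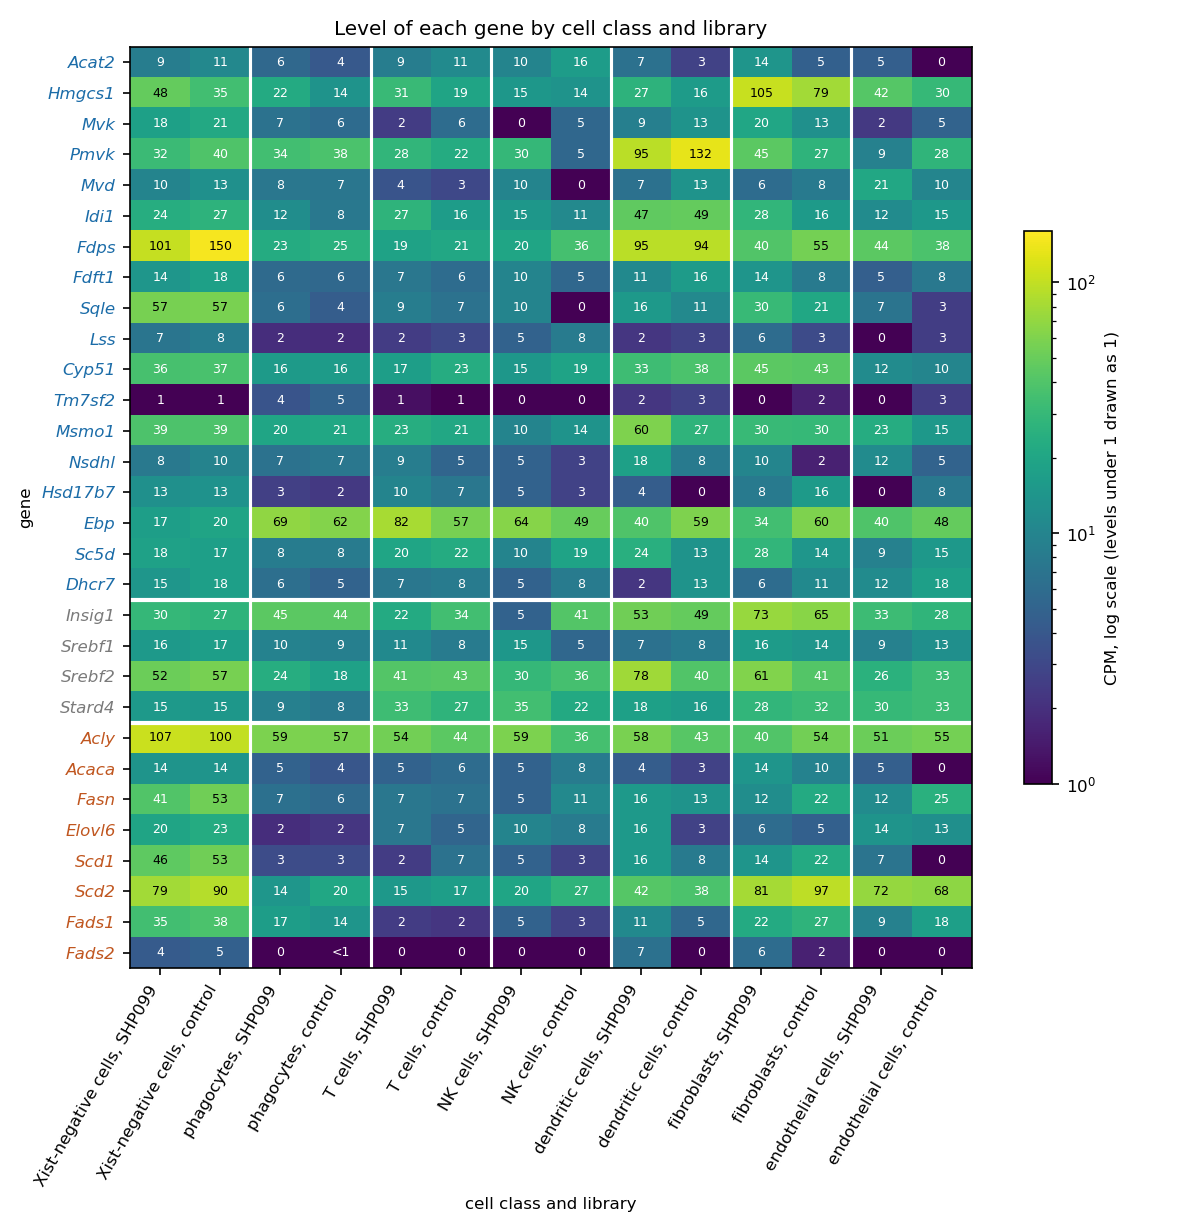
Level of each of the 30 genes (rows, by role) in 7 cell classes (columns, SHP099 left of control in each class), as CPM on a log colour scale with the value in each cell; plasmacytoid dendritic cells and unnamed clusters are left out. Fdps, Sqle, Acly, Fasn, Elovl6, Scd1 and Fads1 are brightest in Xist-negative cells in both libraries, while Ebp is brightest outside them, with 69.0 and 62.2 CPM in SHP099 and control phagocytes against 17.3 and 19.5 CPM in Xist-negative cells.

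Smaller classes had high levels of single members, each from few UMIs. Fibroblasts had the highest Hmgcs1 of the 7 classes plotted, at 105 CPM in SHP099 and 79.2 CPM in control, and the highest Insig1, at 72.8 and 64.9 CPM. Hmgcs1 encodes the cytosolic HMG-CoA synthase, which feeds the mevalonate pathway. Dendritic cells had the highest Pmvk, at 95.3 and 132 CPM, and Fdps there was 95.3 and 94.5 CPM. Scd2, the desaturase gene next to Scd1, was at 80.9 and 96.6 CPM in fibroblasts and 72.1 and 68.0 CPM in endothelial cells, close to the 78.9 and 90.2 CPM of Xist-negative cells. The highest summed cholesterol enzyme level was in plasmacytoid dendritic cells, at 1637 and 1162 CPM, but it rests on 30 and 48 UMIs of 5 and 10 cells. The 18 enzymes summed to 499 and 513 CPM in dendritic cells and 471 and 412 CPM in fibroblasts, beside 466 and 534 CPM in Xist-negative cells. The 8 fatty acid enzymes summed to 344 and 376 CPM in Xist-negative cells, and the next of these classes was fibroblasts at 196 and 238 CPM.

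The classes used different enzymes most. In Xist-negative cells Fdps made up 21.8% and 28.1% of the summed cholesterol enzyme UMIs in SHP099 and control, and Sqle 12.2% and 10.7%. In phagocytes Ebp was 26.7% and 25.8% of the sum and Pmvk 13.3% and 15.7%, while Fdps was 8.8% and 10.5%. Acly, the ATP citrate lyase, was 31.0% and 26.5% of the fatty acid enzyme sum in Xist-negative cells and 55.2% and 53.4% in phagocytes. Across the 11 clusters that held at least 100 cells of each library, the level of Msmo1, a sterol demethylation enzyme, followed the sum of the other cholesterol enzymes most closely in SHP099, with Spearman correlations of 0.95 in both libraries. Hmgcs1 had 0.93 and 0.92 and Sqle 0.84 and 0.97. Ebp had -0.54 and -0.70 and Tm7sf2 -0.79 and -0.59. These correlations describe clusters of the same libraries that also differ in depth, and carry no test. The clusters join 6 of Xist-negative cells with clusters of phagocytes, T cells and unnamed cells. The correlations therefore include the differences between classes given above, and likeness within a class was not tested.

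Between libraries, tumour cells of the SHP099 library had somewhat lower levels of several cholesterol enzymes and a higher level of the opening synthase Hmgcs1, all within 1.5-fold. In Xist-negative cells 26 of the 30 members reached 10 CPM in either library and 4 did not. Among the 15 measured cholesterol enzymes the median log2 ratio of SHP099 over control was -0.18, beside 0.02 over all 7034 genes measured; 2 ratios were above 0, and 9 of the 15 intervals lay below 0. Acat2 and Mvd reached 10 CPM in the control library alone, and without them the median of the other 13 was -0.17. None of the 26 members was 1.5-fold higher, beside 1.12% of all genes, and none was 1.5-fold lower, beside 0.227%. Of the 26 measured members, 6 ratios were above 0 and 20 below 0, beside 3914 and 3120 of all 7034 genes. Over all 30 members whatever their level, 7 ratios were above 0 and 23 below 0. Their counting intervals lay above 0 for 3, below 0 for 18 and across 0 for 9. The share of all genes with an interval off 0 was not counted, so these interval counts have no background. The 18 cholesterol enzymes together were at 466 CPM in SHP099 and 534 CPM in control, a log2 ratio of -0.20 (95% interval -0.22 to -0.18). Their UMIs per cell, 10.0 and 13.3, are not scaled for depth and differ by more than the CPM. The median cell held 20183 UMIs in SHP099 and 24329 in control.

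Fdps had the largest difference of the members in this class. It was at 101.4 CPM (9350 UMIs) in SHP099 and 150.4 CPM (15651 UMIs) in control Xist-negative cells, a log2 ratio of -0.57 (-0.61 to -0.53), and 21 of the 7034 genes had a ratio as low or lower. Farnesyl diphosphate is the branch point from which sterols and the prenyl anchors of RAS proteins are made. Without Fdps, a sum chosen after its value was seen, the other cholesterol enzymes were at 365 and 384 CPM, a log2 ratio of -0.07 (-0.10 to -0.05). Under other settings the Fdps ratio ran between -0.44 and -0.71 and passed 1.5-fold in 4 of them. Thinned to 2000 UMIs per cell, 16.1% of SHP099 and 22.3% of control cells had an Fdps UMI (63.5% and 75.1% with all UMIs).

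Hmgcs1, by contrast, was at 47.8 CPM (4405 UMIs) in SHP099 and 34.6 CPM (3603 UMIs) in control Xist-negative cells, a log2 ratio of 0.46 (0.40 to 0.53), and 153 of the 7034 genes had a ratio as high or higher. Its gene spans chr13:119690379-119708260 on the plus strand (GRCm38), while Fdps spans chr3:89093588-89101959 on the minus strand. Thinned, 9.80% of SHP099 and 6.75% of control cells had an Hmgcs1 UMI (50.8% and 46.0% with all UMIs). The 2 enzymes thus lay on opposite sides of control in the same cells, 1 upstream and 1 downstream of mevalonate.

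The remaining steps lay between them. Of the mevalonate to isoprenoid steps, Mvd, the mevalonate diphosphate decarboxylase, was at 9.83 CPM in SHP099 and 12.9 CPM in control, a log2 ratio of -0.37. Pmvk stood at -0.32, Mvk, the mevalonate kinase, at -0.23, and Idi1, the isopentenyl diphosphate isomerase, at -0.18 (-0.27 to -0.11). Acat2, the cytosolic thiolase that joins acetyl-CoA, was at 8.58 and 10.7 CPM, at -0.31, and Fdft1, the squalene synthase, at 14.3 and 17.9 CPM, at -0.31. Several enzymes that act after squalene lay near control. Sqle had a log2 ratio of -0.01 (56.8 and 57.3 CPM), the lanosterol demethylase gene Cyp51 -0.02 (36.5 and 37.0 CPM), and Msmo1 -0.01 (38.7 and 39.1 CPM), with all 3 intervals across 0. Sc5d, a sterol desaturase, was at 0.05 and Hsd17b7, a ketosteroid reductase of the demethylation steps, at -0.04, again across 0. Other late enzymes were below control, with the lanosterol synthase gene Lss at 7.21 and 8.37 CPM (-0.20), Nsdhl, a sterol dehydrogenase, at -0.29, Dhcr7, a reductase of the last steps, at -0.27 and Ebp at -0.17.

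**Figure D2:**
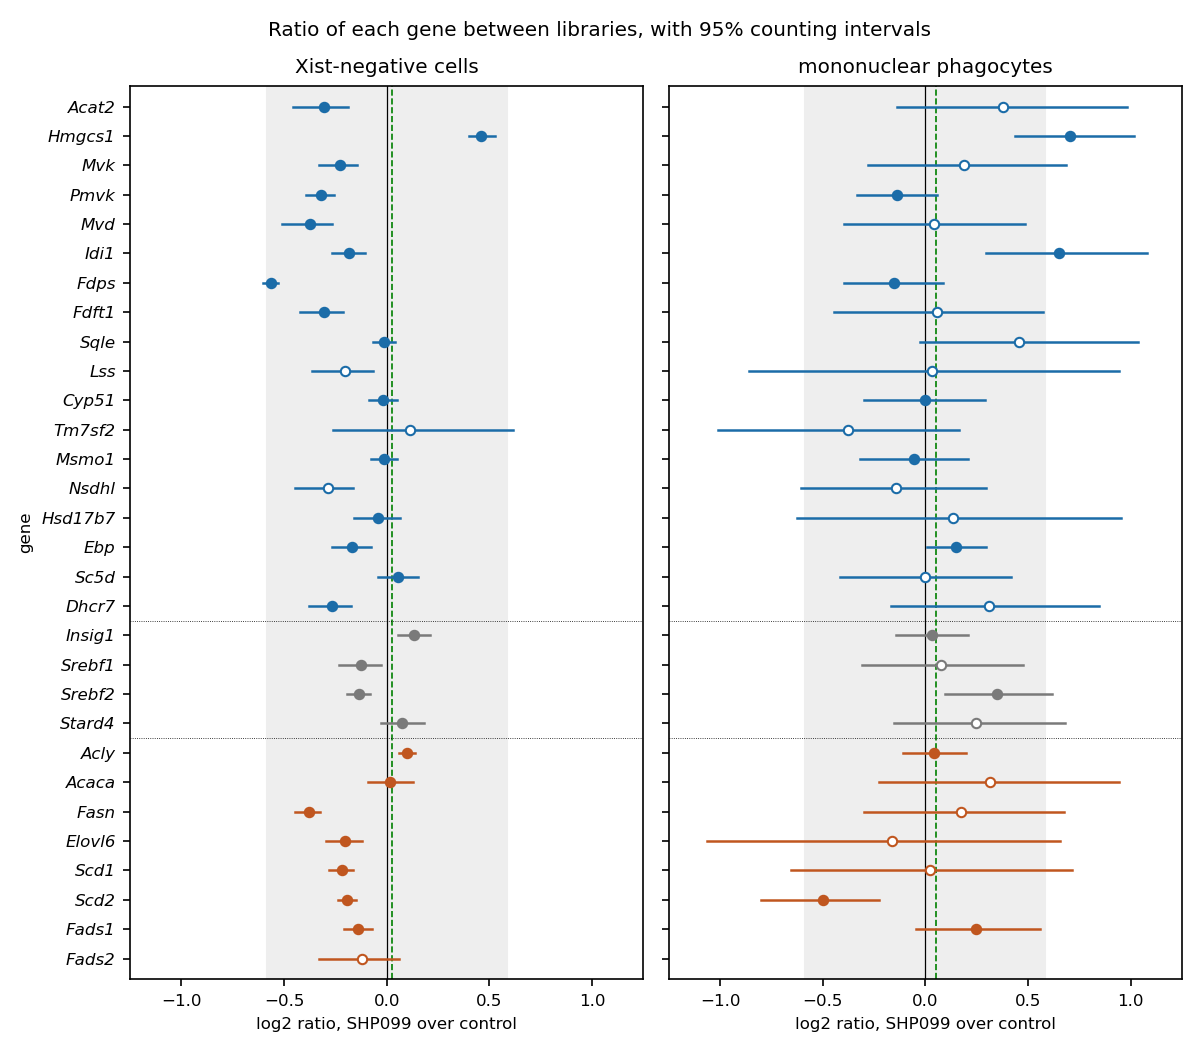
Log2 ratio of SHP099 over control for each gene in Xist-negative cells and phagocytes (panels), with 95% counting intervals as bars. Open circles are genes under 10 CPM in both libraries, the grey band is within 1.5-fold, and the dashed line is the median of all genes measured. In Xist-negative cells Hmgcs1 stands at 0.46 and Fdps at -0.57, and both lie inside the band.

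Among the regulators, Insig1 was at 29.5 CPM in SHP099 and 26.9 CPM in control Xist-negative cells, a log2 ratio of 0.13 (0.06 to 0.21). Srebf2, whose product mainly drives the cholesterol genes, was at 51.6 and 56.9 CPM, at -0.14 (-0.19 to -0.08), and Srebf1, whose product drives fatty acid genes, at 15.7 and 17.2 CPM, at -0.13. Stard4, a soluble sterol carrier, was at 15.3 and 14.6 CPM, at 0.07 (-0.03 to 0.18). The 4 genes together differed by less than the enzymes, at -0.042. Of 10 further genes of SREBP processing, 8 were measured with a median of 0.17, none past 1.5-fold; Insig2 was at 31.7 and 26.8 CPM, a log2 ratio of 0.24.

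The 8 fatty acid enzymes summed to a log2 ratio of -0.13 (-0.15 to -0.10) in Xist-negative cells, and the 7 measured had a median of -0.19. Fasn was the lowest, at 40.7 CPM (3750 UMIs) in SHP099 and 53.1 CPM (5527 UMIs) in control, a log2 ratio of -0.38 (-0.44 to -0.32), which 97 of the 7034 genes matched or passed. Elovl6 was at -0.20, Scd1 at -0.22, Scd2 at -0.19 and Fads1, a desaturase of polyunsaturated fatty acids, at -0.14, all with intervals below 0. Fads2, its partner desaturase, was under the limit at 4.32 and 4.74 CPM. Acly, which supplies the acetyl-CoA of both pathways, was at 107 and 99.6 CPM, at 0.10 (0.06 to 0.14), and Acaca, the acetyl-CoA carboxylase, at 13.9 and 13.7 CPM, at 0.02 (-0.09 to 0.13). Over the class, the first steps thus lay level with or above control and the synthase and later enzymes below it. Within clusters the first steps varied. Acly ran from -0.17 in cluster 2 to 0.19 in cluster 1, and Acaca from -0.52 in cluster 0 to 0.33 in cluster 2. Without Acly, a sum also chosen after the values were seen, the list was at 238 and 276 CPM, at -0.22. Of 20 genes of fatty acid supply and lipid assembly, 10 were measured with a median of -0.04, and Mid1ip1, an activator of acetyl-CoA carboxylase, was lowest at -0.33.

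Cell division genes were also lower in the SHP099 tumour cells. The 20 genes of the mitosis list summed to 1172 CPM in SHP099 and 1361 CPM in control Xist-negative cells, a log2 ratio of -0.22, and the DNA replication list to 575 and 703 CPM, at -0.29. After thinning, 55.0% and 45.1% of the cells had no mitosis UMI. In those cells alone Fdps was at -0.71 and the fatty acid median at -0.27. The mix of clusters also differed between libraries: cluster 0 held 843 SHP099 and 448 control cells, and cluster 9 held 715 and 1020. The part of either in the sums was not tested, beyond the values within clusters that follow.

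Within each of the 6 Xist-negative clusters with at least 100 cells per library, Fdps was lower in SHP099 and its interval lay below 0. The log2 ratios were -1.26 in cluster 0, -0.55 in 1, -0.74 in 2, -0.37 in 8, -0.35 in 9 and -0.61 in 10. Cluster 0, led by the matrix genes Aspn, Dpt and Ogn, had 52.3 CPM of Fdps in SHP099 against 126.4 CPM in control, while cluster 9, the highest, had 151.9 and 194.0 CPM. Fasn was also lower in all 6, between -0.14 and -0.63, each interval below 0. Hmgcs1 was above 0 in 5 of the 6, with intervals above 0 in clusters 1, 8, 9 and 10, at 0.67, 0.57, 0.47 and 0.29. In cluster 2, led by the hypoxia genes Ero1l and Bnip3, it was at 32.0 CPM in SHP099 and 38.1 CPM in control, a log2 ratio of -0.25 (-0.54 to 0.04).

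The summed cholesterol enzymes differed most in clusters 0 and 2. Cluster 0 had 343 CPM in SHP099 and 496 CPM in control, at -0.53, and cluster 2 had 321 and 459 CPM, at -0.51. Clusters 8 and 9, where division genes were highest, were each at -0.09, cluster 10 at -0.24, and cluster 1 at -0.06 with an interval across 0. Without clusters 0, 2 and 18, an alternative added after seeing the data, the median of the cholesterol enzymes over the class was -0.083. The mitosis list was above control in clusters 0, 2, 8 and 9, at 0.12, 0.27, 0.11 and 0.06, and below it in clusters 1 and 10, at -0.25 and -0.46. The DNA replication list was below control in all 6, between -0.35 in cluster 0 and -0.045 in cluster 9.

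**Figure D3:**
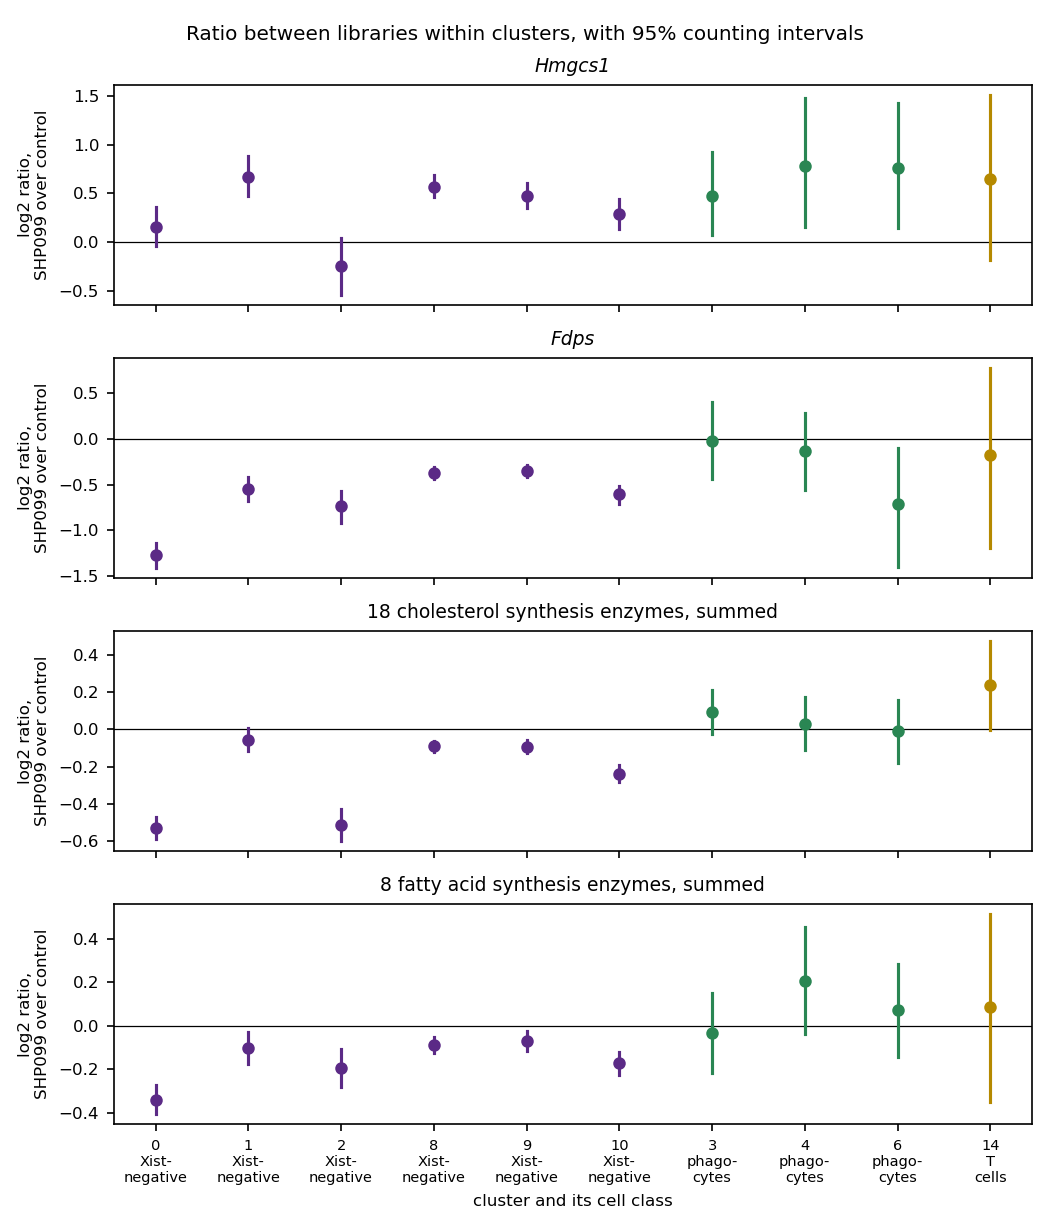
Log2 ratio of SHP099 over control (y axes, each with its own scale) within single clusters (x axis) for Hmgcs1, Fdps, the 18 cholesterol enzymes summed and the 8 fatty acid enzymes summed, with 95% counting intervals as bars. Fdps lies below 0 in all 6 Xist-negative clusters, from -1.26 in cluster 0 to -0.35 in cluster 9, and Hmgcs1 is above 0 in the 3 phagocyte clusters.

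In phagocytes, where most members had lower levels than in tumour cells, 2 cholesterol enzymes stood above control. In this class 12 of the 30 members were measured. Hmgcs1 and Idi1 were at least 1.5-fold higher, beside 4.37% of 6791 genes, and no member was 1.5-fold lower, beside 1.88%. Hmgcs1 was at 22.4 CPM (277 UMIs) in SHP099 and 13.6 CPM (158 UMIs) in control phagocytes, a log2 ratio of 0.70 (0.44 to 1.02). Idi1 was at 12.1 CPM (150 UMIs) and 7.56 CPM (88 UMIs), at 0.65 (0.29 to 1.08), and it passed the 10 CPM limit through the SHP099 library alone. Thinned to 2000 UMIs, 4.003% of SHP099 and 2.43% of control phagocytes had an Hmgcs1 UMI, and 2.50% and 1.69% an Idi1 UMI (9.54% and 5.70%, and 5.38% and 3.40%, with all UMIs). Both calls were lost with a prior of 5 CPM or a 50 CPM limit, the Idi1 call also when each cell counted alike or was thinned, and the Hmgcs1 call when each library was clustered alone, at 0.56.

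The other phagocyte enzymes lay closer to control. Sqle had too few UMIs to pass the filter, with 78 in SHP099 and 52 in control, at 0.46 (-0.03 to 1.03). Ebp was at 0.15 (0.01 to 0.30). Fdps was at 22.7 and 25.3 CPM, at -0.15 (-0.40 to 0.08), Pmvk at -0.14, Msmo1 at 19.9 and 20.7 CPM and Cyp51 at 16.04 and 16.08 CPM. The 18 enzymes together were at 258 CPM in SHP099 and 240.5 CPM in control, at 0.10 (0.03 to 0.18), and without Hmgcs1 at 0.05 (-0.02 to 0.13). The median of the 7 measured was -0.00, beside 0.05 over all genes. Over all 30 members, intervals lay above 0 for 4, below 0 for 1 and across 0 for 25, and the same share over all genes was not counted.

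Srebf2 was at 23.6 CPM in SHP099 and 18.4 CPM in control phagocytes, at 0.35 (0.10 to 0.62), and Insig1 at 44.95 and 43.9 CPM, at 0.03. The fatty acid enzymes summed to 107 CPM in both libraries, a log2 ratio of -0.00 (-0.12 to 0.11). Acly was at 59.1 and 57.3 CPM and Fads1 at 16.9 and 14.2 CPM, both with intervals across 0. Scd2 was at 14.3 CPM in SHP099 and 20.5 CPM in control, at -0.50 (-0.80 to -0.23), but at -0.00 with clusters weighted alike, and its intervals spanned 0 in each of clusters 3, 4 and 6. Fads2 had 0 UMIs in SHP099 and 3 in control. If a count of 0 is taken to allow up to 3 UMIs, the SHP099 level could reach 0.243 CPM. This limit is not the exact Poisson interval used for other levels.

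Hmgcs1 was above control in each of the 3 phagocyte clusters with enough cells, at 0.48 in cluster 3 (C1q macrophages), 0.78 in cluster 4 (monocytes) and 0.76 in cluster 6 (Arg1 and Mmp12 macrophages), each interval above 0. Idi1 was at 0.66, 0.75 and 0.37 there, the last across 0. The mitosis list was at 642 CPM in SHP099 and 259 CPM in control phagocytes, a log2 ratio of 1.31, and 70.6% and 78.4% of thinned cells had no mitosis UMI. In cells without a mitosis UMI, Hmgcs1 stood at 0.69 and Idi1 at 0.78. The part of cell division in these ratios was not tested.

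Genes that export, store or take up lipid spanned a wide range of levels in phagocytes. The list of sterol efflux, storage and LXR targets summed to 3525 and 3963 CPM in SHP099 and control. Of its 15 measured genes 2 were 1.5-fold higher, beside the 4.37% of all genes: Ch25h and the sterol hydroxylase gene Cyp27a1 (10.1 and 5.42 CPM, at 0.84), which passed the limit through the SHP099 library alone. Abca1, the cholesterol exporter, was at 141 and 202 CPM, at -0.52, and Nceh1, a cholesterol ester hydrolase, at -0.51. In lipid uptake, Lpl, the lipoprotein lipase, was at 24.4 and 12.1 CPM, at 0.98, and Fabp5, a fatty acid carrier, at 199.7 and 355 CPM, at -0.83, while Cd36, a scavenger receptor, was at 0.34. The mix of phagocyte clusters differed between libraries, in that cluster 3 held 1317 SHP099 and 884 control cells. Cluster 4 held 717 and 866, cluster 6 held 367 and 724, and cluster 7 held 219 and 54. The lipid uptake list summed to 636 and 791 CPM over the class, at -0.31. Within clusters 3, 4 and 6 it stood at -0.06, 0.02 and 0.03, and cluster 6 had the highest level, at 1411 and 1381 CPM. The sum in cluster 6 joined genes on both sides of control. Fabp5 was at 571 CPM in SHP099 and 757 CPM in control there, while Lpl and Cd36 were higher in SHP099. Within the same 3 clusters Fabp5 was at -0.25, -0.81 and -0.41 and Abca1 at -0.38, -0.80 and -0.21, all intervals below 0. Lpl was at 2.22 in cluster 6, at 114.9 and 24.3 CPM, and at -0.46 and -0.28 with intervals across 0 in clusters 3 and 4. Cd36 was at 1.36 (1.08 to 1.67) in cluster 6, at 110 CPM in SHP099 and 42.7 CPM in control. In clusters 3 and 4 it was at -0.03 and -0.29, with intervals across 0. In Xist-negative cells the same Fabp5 was at 84.0 and 67.0 CPM, at 0.32, the lysosomal lipase gene Lipa at 26.0 and 20.9 CPM, at 0.31, and Soat1, which esterifies cholesterol, at 49.1 and 41.1 CPM, at 0.26. No gene of either list passed 1.5-fold in Xist-negative cells.

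**Figure D4:**
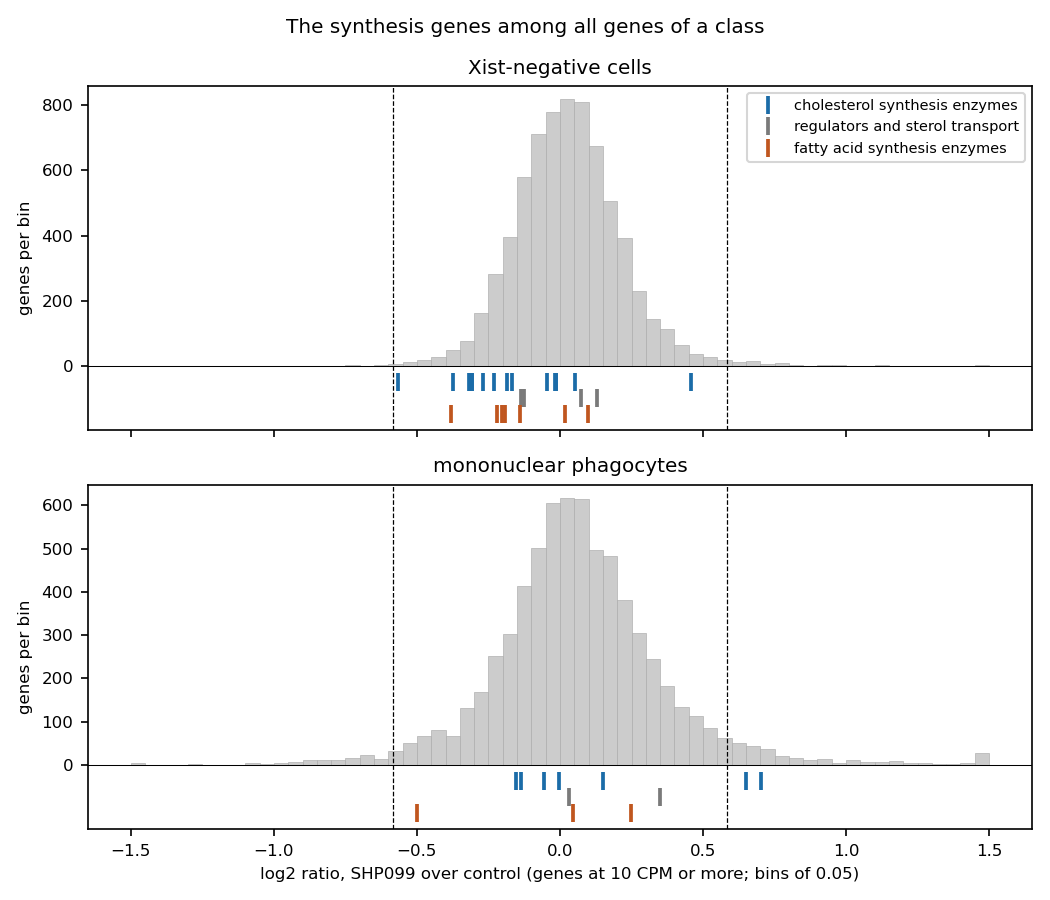
Number of genes (y axis) by log2 ratio of SHP099 over control (x axis) among all genes at 10 CPM or more in either library, for Xist-negative cells and phagocytes; coloured ticks below are the measured members by role, dashed lines mark 1.5-fold, and genes beyond the range are counted in the end bins. Fdps lies in the left tail in Xist-negative cells, where 21 of 7034 genes are as low or lower, and Hmgcs1 in the right tail in both classes.

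In T cells, here cluster 14 alone, the counts were small. Unnamed cluster 16, with 113 and 92 cells, also carried 7 T cell markers and was left out for its low UMI counts. With the unnamed clusters added, 5 cholesterol enzymes were 1.5-fold higher, but the share over all genes was not counted for that setting. Of 15 measured members, 2 were at least 1.5-fold higher, beside 11.3% of 6762 genes, and 1 was lower, beside 8.78%, shares near those of all genes. The higher ones were Hmgcs1, at 30.9 CPM (25 UMIs) in SHP099 and 19.5 CPM (26 UMIs) in control, at 0.65 (-0.19 to 1.51), and Idi1, at 27.2 and 16.5 CPM, at 0.70 (-0.20 to 1.64). Insig1 was the lower one, at 22.2 and 34.5 CPM, at -0.62 (-1.51 to 0.18), and it changed sign when doublet calls were kept. Ebp alone had an interval off 0, at 0.51 (0.02 to 1.01). The cholesterol enzymes summed to 308 and 261 CPM, at 0.24 (-0.00 to 0.48), and the fatty acid enzymes to 93.9 and 88.5 CPM.

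Some member counts could include reads of other genes. Acat2 and Scd1 have close copies in Acat3 and Scd2, although Acat3 itself had 15 UMIs in the compared classes. Fdft1 overlaps Ctsb, a lysosomal protease gene, on the opposite strand; Ctsb was at 208 and 221 CPM in SHP099 and control Xist-negative cells and 1713 and 1920 CPM in phagocytes. Fdps overlaps Gm43738 on its own strand, but that gene was at 0.0217 and 0.0673 CPM in Xist-negative cells. Tm7sf2 overlaps Vps51 on its own strand, and the part of Vps51 reads in its low counts was not tested. On the opposite strand, Hmgcs1 overlaps Gm48342, Cyp51 overlaps Akap9 and Srebf1 overlaps Rai1, among others. The sources used here do not say whether counting used strand.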

How the data were processed

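Single-cell RNA was captured with the 10x Genomics Chromium 3′ chemistry from dissociated MC38 tumours, per the labels' protocols. The deposited matrices hold UMI counts per gene and barcode, which the authors made with Cell Ranger on mm10 (GRCm38), per the submitters' processing notes; the sources used here give neither its version nor its use of strand. Cells with at least 200 genes and at most 20% mitochondrial UMIs were kept (103 and 99 barcodes failed the gene limit and 260 and 194 the mitochondrial limit in SHP099 and control), and 198 and 264 Scrublet calls were removed. Both libraries were clustered together in scanpy 1.11.5 under Python 3.11.15 (2000 variable genes, 30 principal components, 15 neighbours, Leiden resolution 1). A cluster with Xist under 0.1 of the median cluster was called Xist-negative; other clusters were named from at least 3 markers. Clusters 5 and 16 met that number (8 macrophage and 7 T cell markers) but stayed unnamed, because their cells' median UMI count was too low against their library's and no such marker was among their 10 leading genes. Conventional and migratory dendritic lists were joined after seeing the data.

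UMIs were summed per class and library and divided by the class total (CPM). Ratios are log2 of SHP099 over control with 0.5 CPM added to each. Levels have exact Poisson intervals, ratios exact conditional binomial intervals without the added 0.5 CPM, and shares of cells exact binomial intervals, all at 95% and for counting error only. With 1 library per group there is no test and no p-value, and a call means at least 1.5-fold among genes at 10 CPM or more in either library. The ratio and its interval were tested on simulated data. No cell class can be taken to lack these enzymes, so shares of cells with a UMI have no background class. Gene positions come from GENCODE M21 (GRCm38) and promoters from RefSeq (GRCm38.p6); the promoters of the 7 members without an entry were not used here. All 30 members may be named; of the other lists, the 2 highest and 2 lowest measured genes per class. The members and lists were chosen with earlier results of these data known. The 16 alternatives tried include 2 added after seeing the data.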

Additional observations from a re-analysis of the deposited data

Results flagged for a closer look

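For 3 genes and 2 sums, the SHP099 over control ratio had counting intervals on opposite sides of 0 in Xist-negative cells and in phagocytes; the difference between the classes was not tested. The log2 ratio of Idi1 was -0.18 in Xist-negative cells and 0.65 in phagocytes, that of Ebp -0.17 and 0.15, and that of Srebf2 -0.14 and 0.35. The summed cholesterol enzymes stood at -0.20 and 0.10, and the summed regulators and sterol transport genes at -0.042 and 0.14. The mitosis list also lay on opposite sides, at -0.22 and 1.31, and its part in these ratios was not tested. In cells without a mitosis UMI the Idi1 ratio in phagocytes was 0.78. Each class of a library comes from the same capture, so both ratios of a gene share their libraries.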

How the results depend on the processing

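No paired analysis was possible because each group is 1 library, and no replicate could be left out. Over 16 alternatives, 719 of 795 ratios of single members moved by less than their counting interval, 75 moved by more (69 of them in Xist-negative cells, where intervals are narrow) and 1 turned round: Insig1 in T cells was at 0.23 with doublet calls kept, against -0.62. The cause of the shifts below was not tested. Shares of all genes past 1.5-fold are given for the main setting only. Counts of members under the other settings therefore have no background beside them. In Xist-negative cells the cholesterol median was -0.18 and became -0.29 with a 50 CPM limit and -0.083 without clusters 0, 2 and 18; the fatty acid median was -0.19 and became -0.038 with classes from each cell's markers, -0.31 in thinned cells, -0.27 in cells without a mitosis UMI and -0.10 without clusters 0, 2 and 18. The count of cholesterol enzymes 1.5-fold lower there was 0 and became 1 (Fdps) with median-of-ratios scaling, with each cell alike and in cells without a mitosis UMI, and 2 (Fdps and Mvd) in thinned cells, where 1 (Hmgcs1) was higher. In phagocytes the count of 2 higher cholesterol enzymes became 1 with each cell alike, with each library clustered alone and in thinned cells, and 0 with a 50 CPM limit or a prior of 5 CPM; 1 fatty acid enzyme was lower with no low-level limit, with libraries clustered alone and in thinned cells. In T cells the 2 higher cholesterol enzymes became 0 with a 50 CPM limit, a prior of 5 CPM or resolution 2, 1 with doublet calls kept or a 10% mitochondrial limit, 4 in thinned cells, 5 at resolution 0.5 or with the unnamed clusters added, and 6 with libraries clustered alone. Lower cholesterol enzymes in T cells were 0 and became 1 with no low-level limit, at resolution 2 and in cells without a mitosis UMI, and 2 with each cell alike, doublet calls kept, classes from each cell's markers and thinned cells. Fatty acid enzymes in T cells were 3 higher in cells without a mitosis UMI, and 1 lower with no low-level limit, at resolution 2, with classes from each cell's markers and without a mitosis UMI, and 2 lower with doublet calls kept. For summed levels of Xist-negative cells over phagocytes, thinning gave 0.91 against 0.85 for cholesterol enzymes in SHP099, and 1.57 against 1.69 in SHP099 and 1.90 against 1.81 in control for fatty acid enzymes. Depth limits T cells and the smaller classes most, where single members rest on few UMIs.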
